A study of Drosophila melanogaster with 2 samples.

Results

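The DNA damage response and repair genes of Drosophila melanogaster were examined for binding of the zinc finger transcription factor Asciz, also listed as CG14962. The 42 genes were taken from a fixed list of names, 39 by their annotated symbol and 3 (Parp, annotated as Parp1, Thd1 as Tdg and mus205 as PolZ1) by a synonym that points to a single gene. They stand among 13945 protein-coding genes on the 6 chromosome arms 2L, 2R, 3L, 3R, 4 and X. Binding was mapped by ChIP-seq, in which DNA cross-linked to the precipitated protein is sequenced, in whole embryos, male and female together, at 0 to 24 h of age. The flies carry a stable transgene for Asciz whose C-terminal end is fused to GFP, and the precipitation used an antibody against GFP. Both libraries, biological replicates 1 and 3, came from this line, so there is no second genotype or treatment to set them against. A whole embryo holds every tissue and stage of that day, and a peak does not say in which cells the factor was bound. The labels call the libraries biological replicates with separate biosamples, and do not say whether untagged Asciz was still made.

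Cells answer a DNA break through sensor kinases, which in flies are tefu (the ATM kinase) and mei-41 (the ATR kinase). These act through the checkpoint kinases lok (Chk2) and grp (Chk1) and through p53, a transcription factor that switches on genes of cell death. Repair itself runs through separate routes, each suited to a kind of lesion: homologous recombination and end joining for double-strand breaks, base excision repair for damaged bases, mismatch repair for copying errors and nucleotide excision repair for bulky lesions. Asciz was named in vertebrates as a substrate of the ATM kinase, and its best known target in flies and vertebrates encodes LC8, a light chain of dynein, called ctp in the fly.

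Of the 42 genes, 6 were bound, that is, the summit of a reproducible peak lay at most 500 bp from an annotated transcription start site (TSS). Described by name are grp, p53, His2Av, spn-B and Rrp1. The 6 are 14.3% of the repair genes, beside 13.7% of all protein-coding genes, so the share was near the genome's background. Damage signalling and checkpoint genes had 3 bound of 11, homologous recombination 1 of 10 and base excision and single-strand break repair 1 of 7. None of the 4 end joining genes, the 4 nucleotide excision repair genes or the 3 genes of damage tolerance and crosslink repair was bound. The reproducible list holds 5085 peaks, kept by the authors with the irreproducible discovery rate (IDR). IDR measures how well the ranks of peaks repeat between replicates. A place on the list does not mean that both libraries held the peak, since 4910 of the 5085 overlapped a region of replicate 1. No test was made over the 42 genes, because they were chosen with earlier results of these data known.

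The sequences at the summits of 4 bound genes and at the strongest nearby summit that missed the 500 bp limit (DNAlig3) are shown because they are where the factor's signal was centred. Each is the summit base with 50 bp on either side in the release 6 assembly (dm6), read 5′ to 3′ on the gene's own strand. Capitals mark runs of 8 or more A or T, and matches to the motifs TATCGATA and AATATTTA on either strand. They lie at chr2L:16684962-16685062 (grp, plus strand), chr3R:23054135-23054235 (p53, minus strand), chr3R:14327832-14327932 (spn-B, plus strand), chr2L:2972683-2972783 (Rrp1, minus strand) and chr3R:12403076-12403176 (DNAlig3, minus strand).
grp: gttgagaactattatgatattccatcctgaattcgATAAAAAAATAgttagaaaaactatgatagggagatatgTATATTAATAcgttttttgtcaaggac
p53: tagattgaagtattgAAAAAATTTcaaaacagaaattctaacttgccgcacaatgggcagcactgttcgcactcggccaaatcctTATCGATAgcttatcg
spn-B: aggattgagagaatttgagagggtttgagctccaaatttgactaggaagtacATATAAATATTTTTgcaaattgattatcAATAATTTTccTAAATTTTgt
Rrp1: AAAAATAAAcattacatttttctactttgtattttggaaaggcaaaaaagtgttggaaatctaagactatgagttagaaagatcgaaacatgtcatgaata
DNAlig3: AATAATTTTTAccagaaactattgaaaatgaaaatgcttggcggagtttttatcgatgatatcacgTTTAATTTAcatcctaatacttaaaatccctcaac
In these printed windows the share of A and T was 72.3% at grp, 60.4% at p53, 72.3% at spn-B, 73.3% at Rrp1 and 71.3% at DNAlig3. The spn-B window held 3 runs of A and T and the printed grp window 2, while the p53 and Rrp1 windows held 1 such run each. Of promoter summit windows, 75.2% held at least 1. Over all 8 summits at bound repair genes the A+T share was 68.2% ± 7.28 (SD over 8 windows, 60.4% to 80.2%), beside 66.0% ± 9.57 at all 1902 summits within 500 bp of any TSS. The windows below that mean included p53, the lowest of the 8, and 2 that are not printed, those of His2Av and of a second grp summit, both at 61.4%. The second grp window held no run of 8 or more A or T.

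The p53 window was the only window of the 8 with TATCGATA, the DNA replication-related element bound by the factor Dref. The match starts 35 bp downstream of the summit on the p53 strand. This motif occurred in 2.05% of the 1902 promoter summit windows and in 4.48% of windows of the same length centred on the 19252 protein-coding TSSs. AATATTTA, an A and T word chosen because it led an earlier count of words at these summits, was found at spn-B alone, inside the run that starts near the summit, and in 5.36% of promoter summit windows. TTTCCCGC and TTTGGCGC, both of the E2F type, were found in none of the 8 windows and in 0.21% and 0.473% of promoter summit windows. These are descriptions of 8 windows, and a match is not evidence of binding by Dref or any other factor.

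Signals are the peak caller's values as deposited, on a scale of their own in each list, and were compared within a list only. To set the libraries side by side, each library's strongest overlapping region was scaled to the median of that library at reproducible peaks, so that a relative signal of 1 is the median peak. On this scale ctp, the highest peak of the list, stood at 112 in replicate 1 and 129 in replicate 3. The repair genes lay far below it, with relative signals between 0.494 and 2.15 at their bound summits. The median pooled signal of the 6 bound genes, each by its strongest summit, was 305, beside 238.8 for the 1916 bound protein-coding genes. Of the 5085 reproducible peaks, 4910 overlapped a region of replicate 1 and 5080 a region of replicate 3. Depth is unknown because the files hold no read counts, so no counting error can be given.

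Among the checkpoint genes, p53 (FBgn0039044, chr3R:23049657-23054082, minus strand) carried the strongest summit. Its peak, chr3R:23053973-23054396, had a pooled signal of 311.9 and rank 1291. The summit lay 103 bp upstream of the nearest p53 TSS, in an exon of the antisense transcript asRNA:CR46089, and no other gene had a TSS within 500 bp. The relative signal was 1.1 in replicate 1 and 1.81 in replicate 3 (1.45 ± 0.496 over both, SD, n = 2). Replicate 3 was thus the higher library at p53, by 0.71 on the log2 scale, and 13.5% of the 1768 promoter peaks with a region in both libraries differed at least as much.

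The grp gene (FBgn0261278, chr2L:16680054-16699926, plus strand), for the kinase Chk1 that stalls the cell cycle when replication is blocked, held 3 reproducible summits within its span. The first to count lay in an intron, 378 bp upstream of an internal TSS of grp (chr2L:16684800-16685223, signal 212.9, rank 2392), with relative signals of 1.15 in replicate 1 and 1.03 in replicate 3. The second lay 489 bp downstream of another grp TSS (chr2L:16680331-16680754, signal 150.1, rank 4049), with relative signals of 0.835 in replicate 1 and 0.644 in replicate 3. That summit sat only 27 bp from a TSS of squ, a piRNA pathway gene nested in grp on the same strand, in its 5' untranslated region. The third (chr2L:16684249-16684382, signal 291.4, rank 1438) was the strongest of the 3 but lay 1038 bp from the nearest grp TSS. It was 344 bp upstream of CG31807, a gene on the opposite strand, and had relative signals of 1.66 in replicate 1 and 1.10 in replicate 3.

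His2Av (FBgn0001197, chr3R:26866929-26869220, plus strand) makes the histone variant that is phosphorylated round DNA breaks. Its summit (chr3R:26866566-26866989, signal 160.3, rank 3680) lay 151 bp upstream of the TSS and was shared. It fell 29 bp inside ball, the divergently transcribed gene of a histone kinase, in its 5' untranslated region. The relative signal was 0.494 in replicate 1 and 0.965 in replicate 3 (0.73 ± 0.333 over both, SD, n = 2). This was the widest gap between the libraries at a bound repair gene, 0.97 on the log2 scale, and 7.24% of promoter peaks differed at least as much.

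In homologous recombination, spn-B (FBgn0003480, chr3R:14328051-14329608, plus strand) was the only bound gene of 10. It is needed to repair the DNA breaks of meiosis. The summit (chr3R:14327670-14328093, signal 323.0, rank 1240) lay in intergenic sequence 169 bp upstream of the TSS, with no other TSS within 500 bp. The libraries were close here, with relative signals of 1.42 in replicate 1 and 1.5 in replicate 3 (1.46 ± 0.0525 over both, SD, n = 2). A second summit 1227 bp upstream (signal 208.1, rank 2481) lay 123 bp upstream of ATPsynE, an ATP synthase subunit gene, and 135 bp upstream of Afti.

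Rrp1 (FBgn0004584, chr2L:2969773-2972508, minus strand), the gene of an endonuclease that cuts at abasic sites in base excision repair, had the highest pooled signal of the bound repair genes. Its peak (chr2L:2972705-2972876, signal 371.6, rank 967) was centred 225 bp upstream of the TSS. The summit lay between Rrp1 and the divergent gene gammaTub23C, which encodes gamma-tubulin, and was nearer to the gammaTub23C TSS, at 158 bp. Replicate 1 was the higher library here, with a relative signal of 2.15 against 1.34 in replicate 3 (1.74 ± 0.576 over both, SD, n = 2). Its gap of -0.69 on the log2 scale ran opposite to those of p53 and His2Av.

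**Figure D1:**
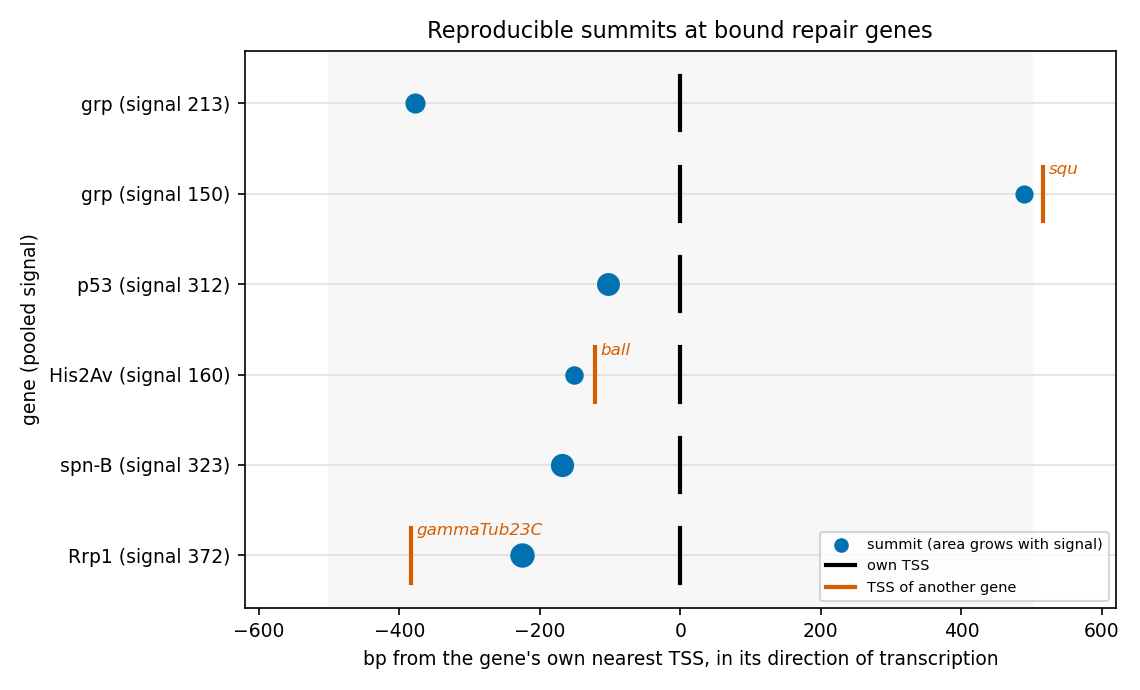
Position of 6 reproducible summits at 5 bound repair genes, in bp from the gene's own nearest TSS and along its direction of transcription (x axis), with genes and pooled signals down the page. Circles are summits, black ticks the gene's TSS and orange ticks the TSS of another gene within 500 bp of the summit. Of these 6 summits 5 lie upstream, and those by squ, ball and gammaTub23C are nearer to the other gene.

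Sharing with neighbours decided some of these calls. Of the 8 summits, 3 (37.5%) lay within 500 bp of a TSS of another gene, beside 532 of 1732 summits (30.7%) at protein-coding genes in general. These shares are not fully alike, because a summit near several genes can be reached through any of them when genes are chosen first. When each summit was given only to the gene of its nearest TSS, 4 repair genes were left, grp, p53 and spn-B among them, or 9.52%, beside 10.9% of all protein-coding genes. His2Av and Rrp1 were lost to ball and gammaTub23C. Whether Asciz acts on either gene of such a pair cannot be read from a peak position.

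**Figure D2:**
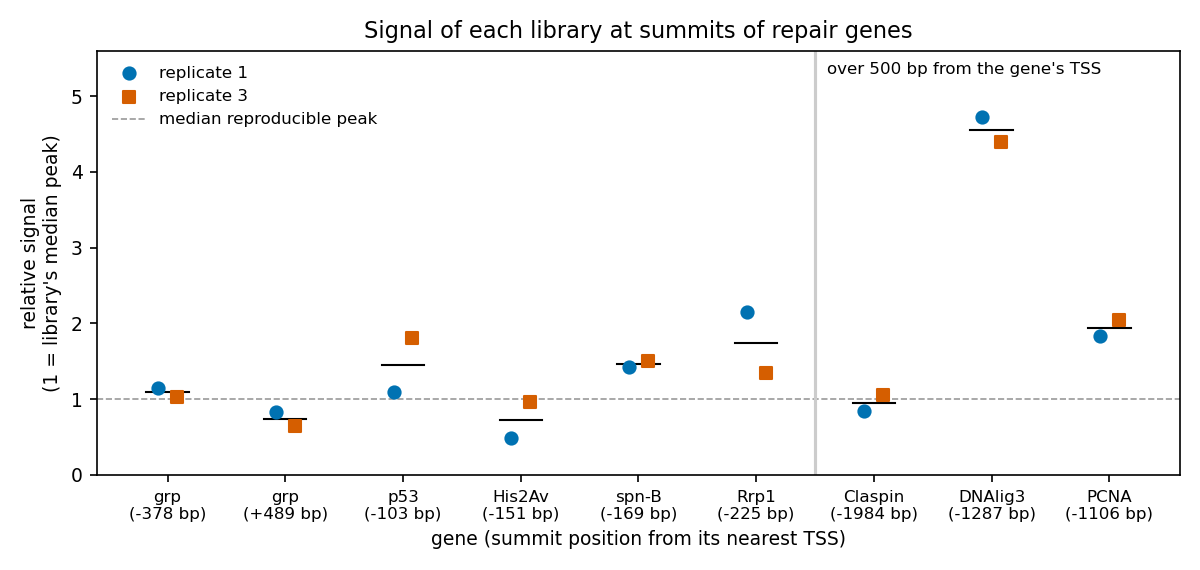
Relative signal (y axis, 1 is the median reproducible peak of that library) in replicate 1 (circles) and replicate 3 (squares), with the mean of both as a bar, at 6 summits of bound repair genes and at 3 summits over 500 bp from a repair gene's TSS. DNAlig3 stands at 4.72 and 4.40, above every bound gene plotted.

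Among the 42 genes, the strongest summit within 2000 bp of a TSS belonged to a gene that does not count as bound. At DNAlig3 (FBgn0286075, chr3R:12399011-12401839, minus strand), a DNA ligase that seals single-strand breaks, a peak of rank 100 (chr3R:12402980-12403290, signal 985.1) lay in intergenic sequence 1287 bp upstream of the TSS. No annotated TSS of any gene was nearer. The relative signal was 4.72 in replicate 1 and 4.40 in replicate 3 (4.56 ± 0.227 over both, SD, n = 2), and the summits of both libraries lay 1284 and 1289 bp from the TSS. Claspin, a checkpoint mediator, likewise had the nearest TSS to an intergenic summit, 1984 bp upstream of it (chr3L:4311287-4311710, signal 204.1, rank 2570, relative signals 0.845 and 1.05).

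At PCNA and Thd1 the nearest summits lay closer to a TSS of another gene. At PCNA, the sliding clamp of replication, the nearest summit was 1106 bp upstream (signal 424.2, rank 757). It lay 10 bp downstream of the TSS of the ribosomal protein gene RpS18 and 305 bp upstream of plu, and had relative signals of 1.84 in replicate 1 and 2.05 in replicate 3. At Thd1, a thymine DNA glycosylase gene on chromosome 4, the summit 890 bp upstream (signal 127.4, rank 5048) was in an intron of Pur-alpha, 521 bp from the TSS of that gene and so outside the limit for it too. Taking each gene by its nearest summit, grp at 378 bp was the farthest inside the limit.

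Within the bodies of repair genes, more than 500 bp from their own TSSs, the reproducible list had 2 summits, in 2 of 42 genes (4.76%), beside 9.15% of all protein-coding genes. They were the third grp summit, in an intron, and a summit in the 3' untranslated region of Rad9, a subunit of the checkpoint clamp. The Rad9 summit (signal 142.9, rank 4327, relative signals 0.813 and 0.496) was 48 bp upstream of the neighbouring gene Blos3. For the relaxed lists, which hold peaks and background regions, the share of all protein-coding genes with such a summit was not computed. In the repair genes such summits numbered 12 in the pooled list (in 4 of 42 genes), 16 in replicate 1 (in 4) and 17 in replicate 3 (in 8). Most fell in grp (7, 6 and 8) and in Thd1 (3, 8 and 3), which span 19873 and 19523 bp against a median of 3100 bp for the 42 genes. Parp, the longest of the 42 at 125704 bp, had none in any list.

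The relaxed lists of 30000 regions each show how far signal below the authors' limit reached the unbound genes. In the pooled relaxed list 13 of 42 repair genes (31.0%) had a region whose summit was at most 500 bp from a TSS, beside 35.2% of protein-coding genes. In replicate 1 it was again 13, beside 32.7%, and in replicate 3 it was 18 (42.9%), beside 41.4%. All 3 relaxed lists placed a summit at 11 repair genes (26.2%), beside 25.2% of protein-coding genes. These 11 were the 6 bound genes together with tefu, mus304, lok, Thd1 and Ogg1.

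Of these 5 unbound genes, 3 came close to the reproducible list, whose weakest peak had a pooled signal of 126.7. The lok region had 124.5 (rank 5212 in the pooled list), the Thd1 region 124.4 (rank 5220) and the tefu region 119.1 (rank 5540). The summits of the kinase genes lok and tefu lay upstream of the TSS, at 183 bp for lok, while that of Thd1, whose product removes thymine from mismatches with guanine, lay downstream of it. In replicate 1 these regions ranked 4780 at lok, 4978 at Thd1 and 4916 at tefu, and in replicate 3 they ranked 6736, 7082 and 6506. The other two were weaker. The gene mus304, which encodes the ATR partner ATRIP, had 79.94 (rank 9867, 132 bp upstream) and Ogg1, a glycosylase that removes oxidised guanine, had 84.61 (rank 9110, 183 bp upstream).

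Single libraries gave further regions that the other did not hold. Of all protein-coding genes, 41.4% had a summit in replicate 3 and 32.7% in replicate 1. The share with a summit in only 1 library was not computed. Among repair genes, replicate 3 alone had a summit at mei-41, Rad9, okr, PolQ, XRCC1 and Xpc, and replicate 1 alone at Ku80. The pooled relaxed list had no summit within 500 bp of a TSS at any of these genes. The strongest of these regions was at mei-41, the ATR gene, with a replicate 3 signal of 114.6 and rank 2855, 149 bp upstream of the TSS. The nearest pooled summit to that TSS was 5404 bp away. At Xpc, which recognises bulky lesions, the replicate 3 region ranked 4480, 222 bp upstream, and at Rad9 it ranked 6512, 7 bp upstream. Lower in the lists were PolQ, a polymerase of alternative end joining (rank 9763), and okr, the fly Rad54 (rank 12206). XRCC1, a scaffold of single-strand break repair (rank 25149), and Ku80, which caps broken ends (rank 19971 in replicate 1), were lower still. Pms2, which acts after mismatch recognition, had a region in the pooled and replicate 3 lists, of rank 5552 in replicate 3, and spn-D, which also acts on meiotic breaks, in the pooled and replicate 1 lists, of rank 15673 in replicate 1.

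**Figure D3:**
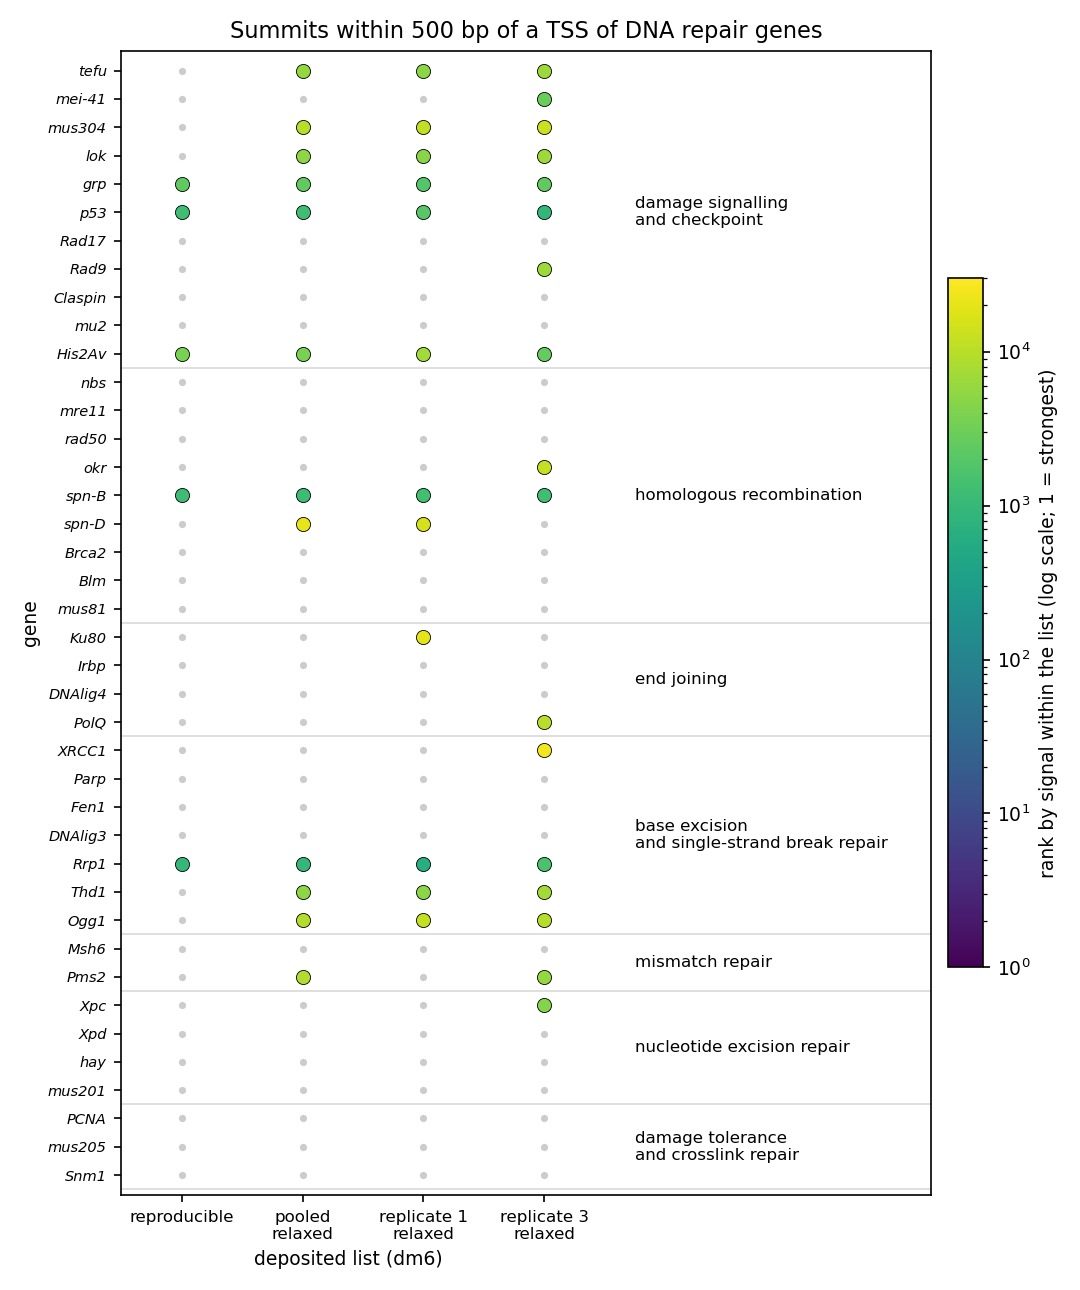
The 40 repair genes described by name, by pathway (rows), against the reproducible list and the 3 relaxed lists (columns). A large dot marks a gene with a summit at most 500 bp from its TSS, coloured by the rank of the strongest such region within its list on a log scale, and a small grey dot means none. The 5 bound genes shown have a region in each list, in the pooled list by construction, since the reproducible peaks are its strongest. Of the genes shown, 21 have none in any list.

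The remaining 22 genes had no summit that near in any relaxed list (52.4%), beside 51.3% of all protein-coding genes. They include every gene of the break-sensing complex that opens homologous recombination (nbs, mre11 and rad50), as well as Brca2, which acts in strand exchange, the helicase gene Blm and the nuclease gene mus81. End joining was represented here by Irbp, the fly Ku70, and the ligase gene DNAlig4. In base excision and single-strand break repair they were Parp, a sensor of breaks, the flap nuclease gene Fen1 and DNAlig3. In nucleotide excision repair Xpd and hay, the helicases of the factor TFIIH, and the nuclease gene mus201 had none. The same held for Msh6, of mismatch recognition, for Rad17, which loads the checkpoint clamp, and for Claspin and mu2, a mediator that binds the phosphorylated histone variant. It also held for PCNA, for mus205, a polymerase that copies past lesions, and for Snm1, a nuclease of crosslink repair. The median distance from a TSS of a repair gene to the nearest reproducible summit was 8050 bp (quartiles 2066 and 13422), beside 9332 bp (2571 and 22528) for all protein-coding genes. Parp, in the pericentromeric part of 3R, lay farthest, at 627236 bp.

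**Figure D4:**
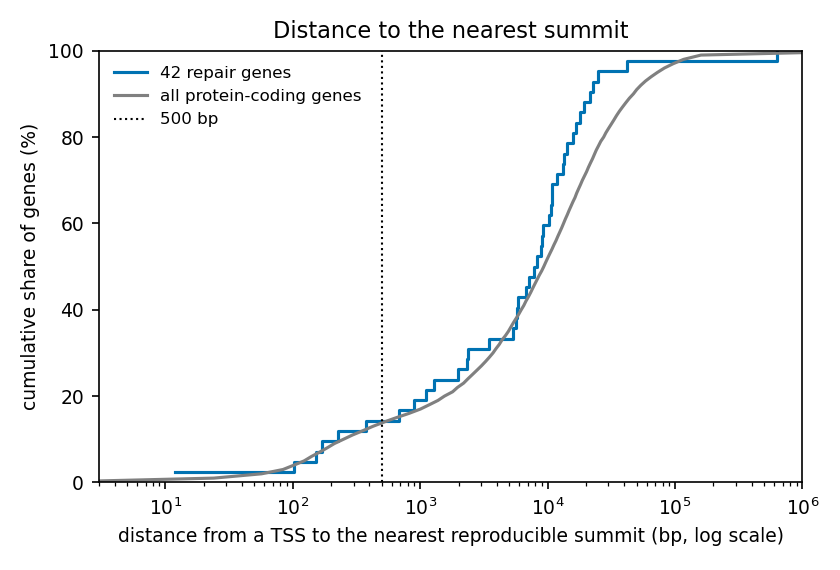
Cumulative share of genes (y axis, %) by distance from a TSS to the nearest reproducible summit (x axis, bp, log scale) for the 42 repair genes (blue) and all 13945 protein-coding genes (grey). The lines lie close together at the dotted 500 bp limit, with 14.3% of repair genes and 13.7% of all genes to its left.

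The 6 bound genes were not equally supported by both libraries. In the 5085 strongest regions of each library alone, 8 repair genes were bound by replicate 1 (19.0%, beside 12.8% of protein-coding genes) and 8 by replicate 3 (19.0%, beside 15.2%). Shared by both were 5 repair genes, grp, p53, spn-B and Rrp1 among them. The share of all protein-coding genes called in both libraries was not computed. Replicate 1 added tefu, lok and Thd1 and lacked His2Av, whose region ranked 7109 there. Replicate 3 kept His2Av, at rank 2663, and added mei-41 and Xpc.

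A further list of 42 repair genes outside the 42 above, among them polymerases, photolyases and genes of the Fanconi and TFIIH complexes, had 7 bound (16.7%), again beside 13.7%. By pooled signal these were Ssl1, a TFIIH subunit (1541, rank 25), the photolyase phr6-4 (542.1), SMC6 (425.5), the lesion-bypass polymerase Rev1 (412.9), the helicase RecQ5 (237.7), the photolyase phr (201.4) and Ercc1 (160.0). Every one of these 7 shared its summit with another gene. The 30.7% found for protein-coding genes in general counts each summit once, not each gene, so it is not a like measure. The nearer TSS was that of Chro, the chromodomain protein gene, at Ssl1 (66 bp), of dlp at RecQ5 (125 bp) and of SMC2 at Ercc1 (73 bp). When each summit was given only to the gene of its nearest TSS, 4 of the 42 were bound, beside 10.9% of protein-coding genes. At Ercc1, which encodes a partner of the nuclease mei-9, the peak overlapped no region of replicate 1. A list of 12 targets of p53 and genes of apoptosis had 5 bound (41.7%), likewise beside 13.7%. This list too was chosen with earlier results of these data known, and the difference was not tested. By pooled signal they were the death activator hid (324.8), the caspase inhibitor Diap1 (198.1), the p53 regulator Corp (186.5), the TNF ligand egr (169.5) and the caspase activator Dark (133.4). Only hid, at rank 1228, was among the 2542 strongest peaks, and the others ranked from 2687 to 4740. Unbound were rpr, skl, grim, Xrp1, Dronc, RnrL and RnrS. None of the summits of the 5 bound genes was shared with another gene. Their relative signals were unlike in the libraries at egr, with 0.97 in replicate 1 and 0.407 in replicate 3, and at Dark, where replicate 1 had no region. With a limit of 200 bp, 2 of these 12 and 4 of the 42 further repair genes were bound, beside 8.52% of protein-coding genes.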

How the data were processed

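ChIP-seq of 2 libraries was examined as peak lists in dm6, in narrowPeak layout. Per the deposited file listings, each library and both together gave a relaxed list of 30000 regions made against a control alignment, which is not analysed here, and IDR gave the reproducible list. The signal column holds the peak caller's signal per region as deposited by the authors. The sources used here name neither the aligner nor the peak caller.

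The reproducible peaks were the 5085 highest of the pooled list. Gene models were those of Ensembl release 115 (BDGP 6.54), leaving out transposable elements, and sequence came from RefSeq's release 6 assembly, whose chromosome lengths hold all regions. Coordinates are 1-based. Only 6 chromosome arms were used. Replicate regions were matched by 1 bp of overlap. Binding calls were checked on planted summits. Python 3.11.15, numpy 2.4.6, pandas 2.3.3 and matplotlib 3.10.9 were used.

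Members, pathways, further lists and motifs were chosen with earlier results of these data known. Results of some genes are not reported here. Otherwise values are given for bound genes and for unbound genes with a relaxed summit within 500 bp, or a reproducible one within 2000 bp or inside, while the other unbound genes are named by pathway. Windows overlapping untranslated regions or on 2R are not printed. Alternatives covered the window, nearest TSS, overlap, threshold and each library alone.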

Additional observations from a re-analysis of the deposited data

How the results depend on the processing

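The count of bound repair genes stayed between 4 and 8 of 42 under all 7 alternatives, beside 6. A 200 bp window gave 4 (without grp and Rrp1, beside 8.52% of protein-coding genes) and a 1000 bp window 8 (with Thd1 among those added, beside 17.0%). The nearest TSS alone gave 4 (beside 10.9%), the 2542 strongest peaks 5 (without His2Av, beside 8.14%) and any overlap of the peak interval with the window 7 (beside 15.3%). There were 8 without replicate 1 (beside 15.2%) and 8 without replicate 3 (beside 12.8%). These are the calls given above from the 5085 strongest regions of the other library, not a reproducible list made anew. The number of pathways with a bound gene ranged from 3 to 5, beside 4. Base excision repair had no bound gene with 200 bp or the nearest TSS, and nucleotide excision repair had 1 without replicate 1. A sequence window about double in length gave an A+T share of 67.8% and changed neither which of the 4 motifs was found nor at which gene. Of the other values recomputed, 57 stayed within their limit and 10 moved, all of them counts by pathway or list. Ranks are in another unit than relative signals, so they gave no value to compare. The files give no depth, so weak regions cannot be given a counting error. No paired analysis was possible because there is 1 group.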
